A study of Mus musculus with 6 samples.

Results

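The Frmd4a and Sept9 loci of C2C12 cells, a mouse myoblast line that fuses into myotubes in culture, hold long clusters of H3K27ac peaks. H3K27ac is histone H3 acetylated at lysine 27. Members were all peaks of the 3 H3K27ac lists that overlapped a window on chromosome 2 from 4300000 to 4560000 (Frmd4a, 260 kb) or on chromosome 11 from 117050000 to 117230000 (Sept9, 180 kb), on mouse build mm9, counted from 1. They numbered 478 of 243962 peaks in all, 236 at Frmd4a and 242 at Sept9. The windows were chosen for clusters whose length under peaks was greater at 36 h than in proliferation in these lists, so that difference is given here as a description, with no test.

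The series concerns TAp63, an isoform of the transcription factor p63, in myogenesis. It holds 6 samples of unmodified C2C12 cells as far as the labels say, namely an H3K27ac chromatin immunoprecipitation (ChIP) library and an input library for proliferating myoblasts, for 36 h of differentiation and for 72 h of differentiation. Each ChIP library was made from DNA pooled over 4 ChIP assays with 1.2 µg of antibody each. There was therefore 1 H3K27ac library per stage, no spread between cultures could be measured, and no p-value was computed.

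As background, H3K27ac is deposited by the acetyltransferases p300 and CBP on nucleosomes of active promoters and enhancers. It often forms long clusters of neighbouring peaks over and around genes that are strongly transcribed in a cell type. Frmd4a encodes a FERM domain scaffold protein, which in human cells links the Par-3 polarity complex to the activation of the small GTPase Arf6. Sept9, now named Septin9, encodes a septin, a GTP-binding cytoskeletal protein that assembles with other septins into filaments and acts in cytokinesis. In the RefSeq gene table of build GRCm38.p6, Frmd4a is on chromosome 2, is 596 kb long and lies between Fam107b and Prpf18. Septin9 is on chromosome 11, is 163 kb long and lies between Sec14l1 and Tnrc6c. The Frmd4a window, at 260 kb, is shorter than the gene. Because the peak lists are on mm9 and the table is on another build, no peak was placed relative to an exon, an intron or a transcription start, and the loci carry the names given to the windows.

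RefSeq gives 4 transcription starts for each gene, and the 250 bases before each were searched on both strands for the E-box CANNTG, bound by MyoD and other basic helix-loop-helix factors, the AP-1 site TGACTCA, the GC box GGGCGG bound by Sp1, and the p53-family half-site. The 4 starts printed here are those that held 2 or more matches of the E-box or the AP-1 site and the start with the most GC boxes. Capitals mark the matches, and positions are on GRCm38.p6, so they cannot be set beside the mm9 positions of the peaks.
Frmd4a start 2, chr2:4152613-4152862, plus strand: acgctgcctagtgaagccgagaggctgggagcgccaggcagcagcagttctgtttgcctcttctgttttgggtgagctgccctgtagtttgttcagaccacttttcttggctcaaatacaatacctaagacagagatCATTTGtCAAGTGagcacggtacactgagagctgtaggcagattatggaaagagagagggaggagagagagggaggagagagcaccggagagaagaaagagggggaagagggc
Frmd4a start 3, chr2:4400726-4400975, plus strand: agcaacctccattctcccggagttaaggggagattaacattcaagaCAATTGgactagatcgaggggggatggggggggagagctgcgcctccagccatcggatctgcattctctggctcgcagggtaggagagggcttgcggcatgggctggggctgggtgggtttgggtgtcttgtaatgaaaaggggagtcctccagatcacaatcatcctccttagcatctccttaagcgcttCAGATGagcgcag
Septin9 start 1, chr11:117199411-117199660, plus strand: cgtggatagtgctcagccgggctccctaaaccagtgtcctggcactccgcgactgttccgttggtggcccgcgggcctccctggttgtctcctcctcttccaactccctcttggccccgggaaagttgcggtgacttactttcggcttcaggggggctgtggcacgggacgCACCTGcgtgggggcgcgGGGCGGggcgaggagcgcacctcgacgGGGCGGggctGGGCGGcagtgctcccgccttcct
Septin9 start 3, chr11:117331465-117331714, plus strand: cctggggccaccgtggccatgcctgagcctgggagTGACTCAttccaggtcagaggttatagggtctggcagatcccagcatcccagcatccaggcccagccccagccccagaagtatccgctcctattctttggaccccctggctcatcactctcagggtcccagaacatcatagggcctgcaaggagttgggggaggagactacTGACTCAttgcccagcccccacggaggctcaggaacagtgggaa
Frmd4a starts 2 and 3 held 2 E-boxes each, and starts 1 and 4 held none. An E-box was present in 66.2% of 32851 such stretches over all genes. Septin9 start 3 held 2 AP-1 sites, a match present in 4.46% of all stretches, and no other start of either gene held any. Septin9 starts 1 and 2 held 3 and 2 GC boxes and 1 E-box each, and Frmd4a start 4 held 2 GC boxes, with a GC box in 32.7% of all stretches. The p53-family half-site, present in 7.13% of all stretches, had 1 match, at Septin9 start 4. The 4 Septin9 starts held 23, 18, 3 and 14 CpG dinucleotides and the 4 Frmd4a starts 2, 5, 8 and 11, and the median over all stretches was 6. A match to letters is not a binding site.

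The whole lists held 57101 peaks in proliferation, 89717 at 36 h and 97144 at 72 h. ChIP depth, recovered from the deposited fold and p of each peak, was 1.19 (36 h) and 1.1 (72 h) relative to the proliferation library. The local background solved with the fold was higher in the proliferation library. The control setting of the peak calling is not given in the labels, so this background is read here as input signal without a check. Its median over all peaks of a list was 1.94 times the genome background in proliferation, 1.06 at 36 h and 1.16 in the 72 h list.

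At Frmd4a, H3K27ac peaks covered less of the window in proliferating myoblasts than in differentiating cells. The window held 39 proliferation peaks, 102 peaks of 36 h and 95 of 72 h, and the length under peaks in the same order was 23.5, 78.6 and 76.5 kb, or 9.0%, 30.2% and 29.4% of the window. The 36 h length was 3.35 times and the 72 h length 3.26 times that of proliferation. With lists equal in number Frmd4a held 39, 61 and 53 peaks, so the ratio of peak number to proliferation was 1.56 for 36 h in place of 2.62, and 1.36 for 72 h in place of 2.44. Sept9 was already broadly acetylated in proliferating myoblasts. Its window held 65 proliferation peaks, 97 peaks of 36 h and 80 of 72 h, and 50.4, 89.1 and 82.5 kb lay under peaks, or 28.0%, 49.5% and 45.8% of the window. Here the 36 h length was 1.77 times and the 72 h length 1.64 times that of proliferation. With depth, signal at shared regions and background of the later libraries made equal to proliferation, an alternative chosen after seeing the data, the later lengths at Frmd4a were 73.1 kb (36 h) and 69.9 kb (72 h), and those at Sept9 80.8 kb and 76.0 kb. This alternative drops whole peaks and keeps the deposited width of the others, so it does not shorten a peak. The same alternative left Sept9 with 73 peaks at 36 h and 58 at 72 h, against 65 in proliferation, so at 72 h its peak number, unlike its length, was then below that of proliferation. With lists equal in number Sept9 held 65, 69 and 48 peaks.

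**Figure D1:**
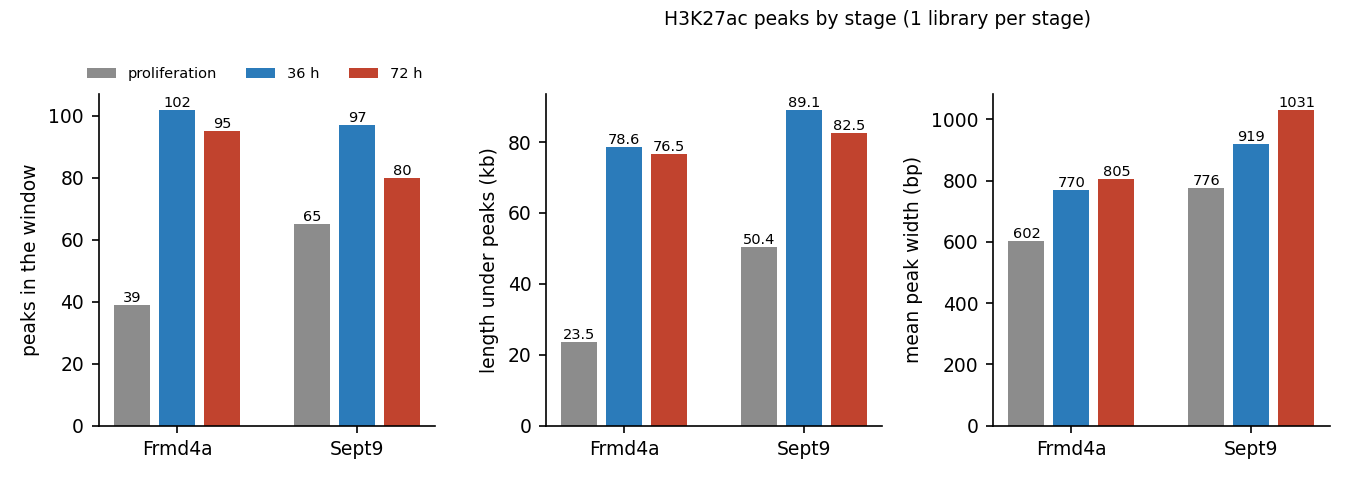
Peaks in the window (number), length under peaks (kb) and mean peak width (bp) at Frmd4a and Sept9, with 1 bar for each stage and so no error bars. Frmd4a has bars of 23.5, 78.6 and 76.5 kb, and at both loci the 36 h bar is the highest for number and length while mean width is greatest at 72 h.

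Set beside the whole lists, Frmd4a had the larger ratio of later to proliferation length and Sept9 one close to that of the lists at 36 h. Over the rest of each list, the length under peaks at 36 h was 1.79 times that of proliferation, and the 72 h length 2.03 times. Frmd4a was above both values, and Sept9 was just under the first and below the second. With depth, signal and background made equal, the length ratios of the whole lists were 1.63 (36 h) and 1.81 (72 h). Those of Frmd4a were then 3.12 and 2.98, and those of Sept9 1.6 and 1.51. The ratios of peak number were 1.24 and 1.24 for the whole lists, 2.15 and 1.77 for Frmd4a, and 1.12 and 0.89 for Sept9. When the peaks of the 3 lists were pooled and stitched across gaps of up to 12500 bp, 1687 clusters had at least 10 kb under peaks, and 70.2% of them were at least 1.5 times as long at 36 h as in proliferation. At 72 h, 72.9% were at least 1.5 times as long as in proliferation. Both loci passed this fold at both stages, and nothing is read from that, since the windows were chosen for it. Frmd4a had a ratio of 3.34 for 36 h over proliferation with a pseudocount of 100 bp, above 70.2% of these clusters, and Sept9 one of 1.77, above 38.8%, while the median was 2.14. In added length, which grows with the size of a cluster, the loci ranked higher, with 55.1 kb more at 36 h than in proliferation at Frmd4a, the second largest of the 1687, and 38.7 kb more at Sept9, which ranked 10. The windows were chosen for this growth, so nothing is read from their places by ratio or by added length. By length under peaks Sept9 ranked 4 in proliferation, 3 at 36 h and 3 in the 72 h list, whereas Frmd4a ranked 44, 5 and 4.

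Between the differentiation stages both loci had a little less length under peaks at 72 h, while the lists as a whole had more. The 72 h length was 0.97 times that of 36 h at Frmd4a, a difference of -2.1 kb, and 0.93 times at Sept9, a difference of -6.7 kb, while it was 1.14 times over the rest of the lists. In the deposited lists the same holds for peak number. The ratio was 0.93 for Frmd4a and 0.82 for Sept9, against 1.08 for the rest of the lists. This whole-list rise depended on the setting. It was 0.97 for a −log10 q of at least 5 and 1.02 for a fold of at least 5. It was 1.09 with thinning, and 1.0 once the later libraries matched proliferation in depth, signal and background. In the same order the ratios of Frmd4a were 0.85, 0.86, 0.93 and 0.82, and those of Sept9 0.7, 0.69, 0.81 and 0.79. Whole-list length ratios were 1.1, 1.12, 1.14 and 1.11. A shorter length at 72 h than at 36 h was found in 37.2% of the 1687 clusters, so the direction alone was common. The windows were chosen for length at 36 h, so a lower 72 h value relative to 36 h is not independent of that choice. Nothing is read from the difference between the loci and the lists.

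**Figure D2:**
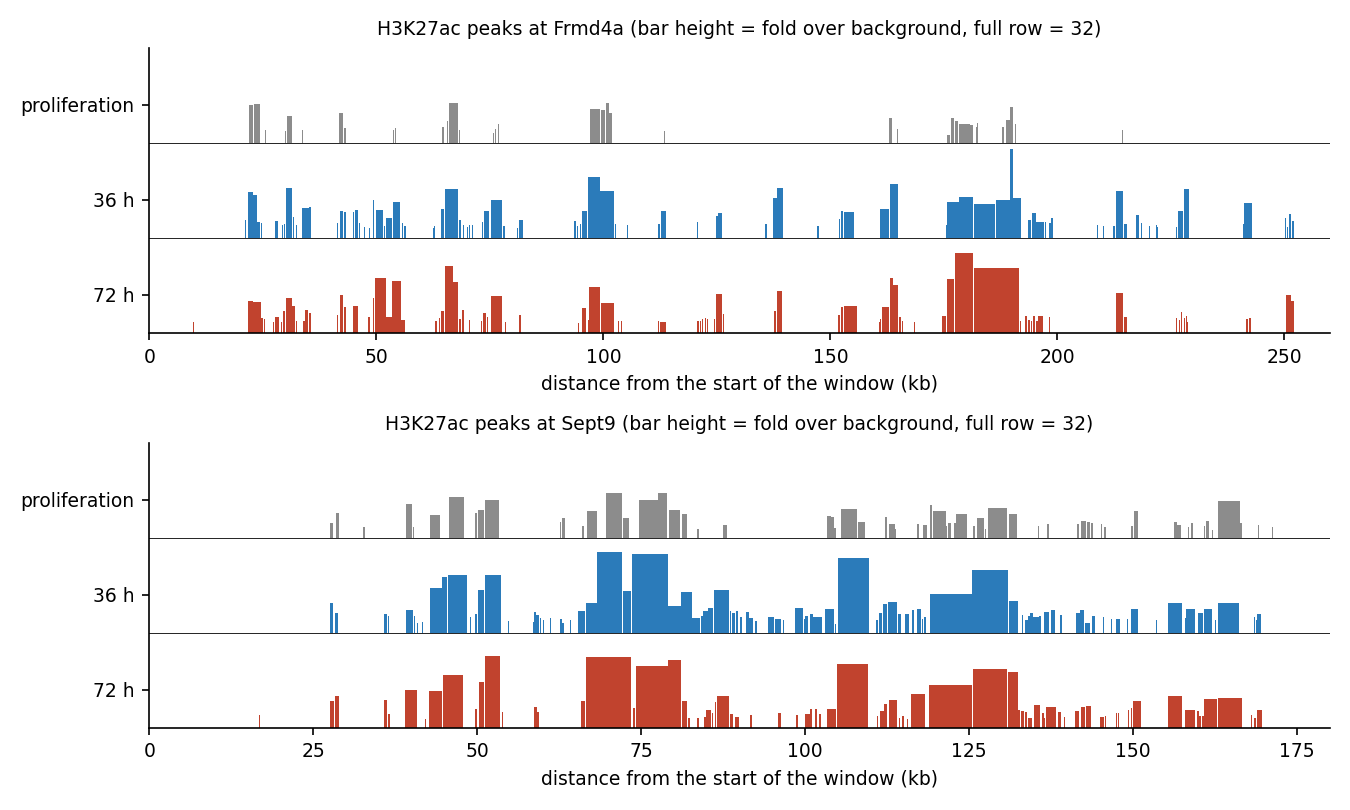
H3K27ac peaks along each window by stage, with the distance from the window start in kb on the x axis and bar height giving the authors' fold over background within each list (a full row is 32). At Frmd4a the proliferation peaks form separate groups and later peaks also lie in parts of the space between them, with a run that is nearly continuous near 190 kb. At Sept9 peaks are spread over most of the window at each stage.

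Most of the added length at Frmd4a lay more than 1 kb from any proliferation peak. The longest stretch with no proliferation peak inside the cluster ran from 4413598 to 4462620, 49.0 kb, and held 14 peaks at 36 h and 18 at 72 h, which covered 9.2 kb and 10.6 kb of it. After the last proliferation peak, which ended at 4514513, a further 17 peaks at 36 h and 11 at 72 h covered 7.9 kb and 4.7 kb. Of the 56.0 kb under 36 h peaks and not under proliferation peaks, 85.0% lay between the outermost proliferation peaks of the window. Of the 56.0 kb, 34.5% lay within 1 kb of a proliferation peak, although this exceeds the 14% of all bases free of proliferation peaks that lay so close, while 51.5% lay within 2 kb and 29.9% more than 5 kb away. At 72 h the added 53.8 kb were placed alike, with 39.5% within 1 kb and 27.2% beyond 5 kb. In bins of 10 kb, 14 of 26 held a proliferation peak, 23 held a 36 h peak and 22 a 72 h peak, and no bin had less length under peaks at 36 h than in proliferation.

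At Sept9 the added length lay beside and between existing peaks. All of the 41.3 kb added at 36 h lay between the outermost proliferation peaks, 65.5% of it within 1 kb of a proliferation peak and 5.0% beyond 5 kb. Of the bases free of proliferation peaks in the window, 42.2% lay within 1 kb, against 14% at Frmd4a. The shares beside a proliferation peak are therefore not directly comparable between the loci. At 72 h, 75.2% of the added 34.2 kb lay within 1 kb. The longest stretch with no proliferation peak inside the cluster ran from 117138129 to 117153401, 15.3 kb. It held 17 peaks covering 8.9 kb at 36 h and 11 peaks covering 4.2 kb at 72 h. Its bin from 117140000 to 117149999 had none under proliferation peaks, 5.0 kb under 36 h peaks and 1.09 kb under 72 h peaks. Peaks were present in 15 of 18 bins in proliferation, 15 at 36 h and 16 at 72 h.

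**Figure D3:**
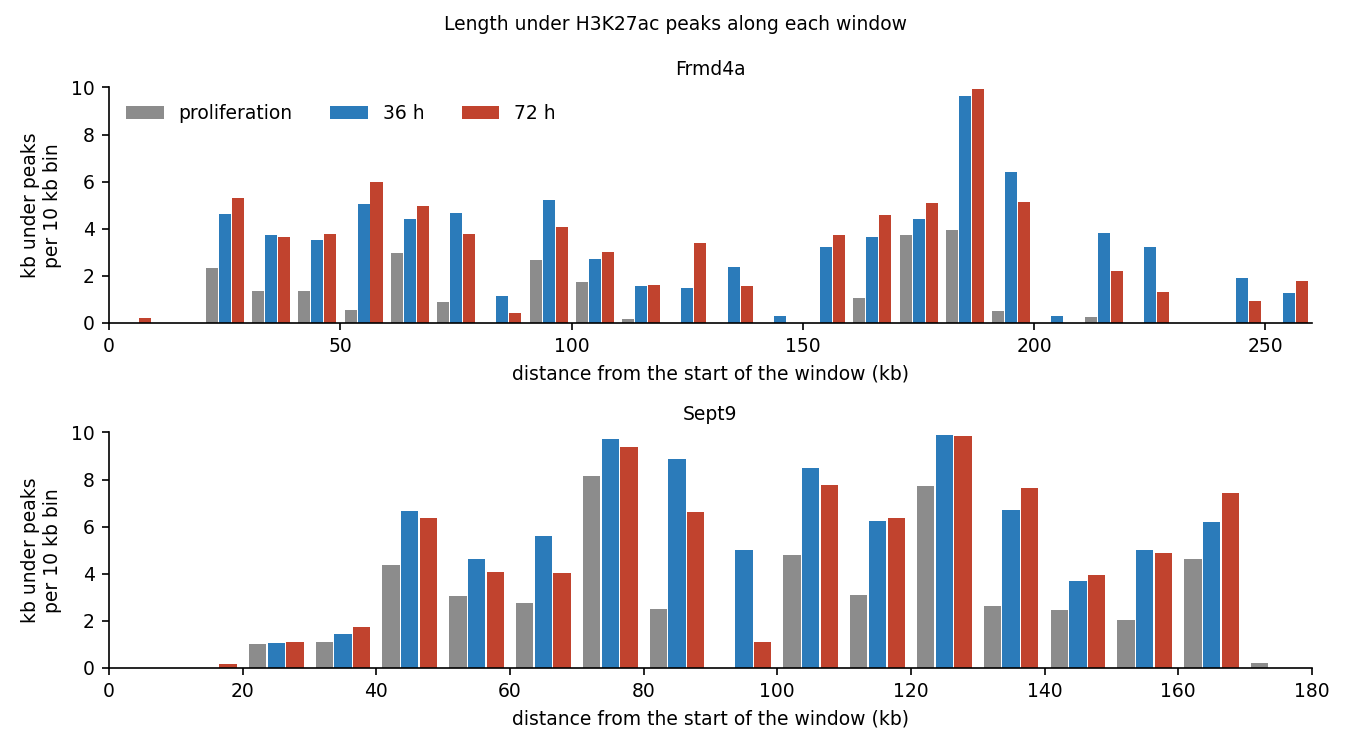
Length under H3K27ac peaks (kb) in consecutive 10 kb bins along each window, with 1 bar per stage in each bin. At Frmd4a the bin from 180 kb to 190 kb has 3.93 kb (proliferation), 9.63 kb (36 h) and 9.92 kb (72 h), and at Sept9 the bin from 90 kb to 100 kb has 0.0, 5.0 and 1.09 kb.

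Most proliferation peaks were overlapped by later ones, at both loci and over the whole lists. Over all proliferation peaks, 76.3% were overlapped by a 36 h peak and 82% by a 72 h peak. At Frmd4a, 38 of 39 were overlapped at each later stage, and the shared 22.5 kb made up 28.7% of the 36 h length and 96.0% of the proliferation length. At Sept9, 59 of 65 were overlapped at 36 h and 60 at 72 h, and the shared 47.8 kb made up 53.7% of the 36 h length and 94.8% of the proliferation length. The converse share was lower, since 24 of 102 peaks of 36 h and 23 of 95 peaks of 72 h at Frmd4a, and 44 of 97 and 37 of 80 at Sept9, overlapped a proliferation peak, compared with 42.2% of the 36 h list and 40.2% of the 72 h list. Since the windows were chosen on the same lists, nothing is read from these shares. Later peaks also joined several earlier ones, at both loci and over the whole lists. At Frmd4a, 10 peaks of 36 h spanned 2 or more proliferation peaks, and 8 peaks of 72 h did, with at most 8 spanned. At Sept9, 12 peaks of 36 h and 13 of 72 h did so, with at most 6 spanned. Over the whole lists, 7764 of 89717 peaks of 36 h and 8499 of 97144 peaks of 72 h did so. At most 11 and 15 proliferation peaks were spanned there, and nothing particular to the loci is read from these counts.

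The later stages shared most of their acetylated bases with each other. At Frmd4a, 93.0 kb lay under a peak at any stage, of which 22.2 kb (23.9%) were under peaks at all 3 stages and 40.3 kb (43.4%) at 36 h and 72 h alone. A further 15.7 kb were under 36 h peaks alone, 13.5 kb under 72 h peaks alone and 0.5 kb under proliferation peaks alone. At Sept9, of 99.8 kb under a peak at any stage, 46.7 kb (46.8%) were common to the 3 stages, 26.2 kb (26.2%) to 36 h and 72 h, and 15.1 kb, 8.1 kb and 1.1 kb belonged to 36 h, 72 h and proliferation alone.

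The widest run of acetylation at Frmd4a lay between 4477344 and 4491494. In proliferation it held the widest peak of the window, from 4478281 to 4480762, 2482 bp wide, with a fold of 6.3 and 55 fragments at the summit (95% Poisson interval 41.4 to 71.6, counting error only). Its local background was 4.95 times the genome background, the highest of any proliferation peak in the window. At 36 h the widest peak ran from 4481602 to 4486370, 4769 bp, where proliferation had 3 short peaks covering 0.69 kb. At 72 h a peak of 9941 bp ran from 4481554 to 4491494, wider than 99.98% of the 72 h list, over 8 proliferation peaks that covered 3.1 kb and 4 peaks of 36 h that covered 9.54 kb. The highest fold of the window at 36 h, 29.9, lay inside this stretch, in a peak from 4489564 to 4490230 with 95 summit fragments (76.9 to 116.1), or 79.6 at the depth of proliferation, where the proliferation peak had 40 fragments and a fold of 12.0. That fold exceeded 99.2% of the 36 h list. At 72 h the highest fold was 27, in the peak from 4477344 to 4481476, with 88 summit fragments (70.6 to 108.4), and it exceeded 98.7% of the 72 h list.

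Other Frmd4a sites were strong at each stage. The peak from 4365924 to 4367972 had 58 summit fragments in proliferation, and peaks overlapping it had 78 at 36 h and 102 at 72 h, before any scaling for depth, with folds within their own lists of 13.3, 16.5 and 22.7. The site from 4397155 to 4399182 had 49 fragments in proliferation, 65 at 36 h and 57 at 72 h. The highest fold of the window in proliferation, 13.5, was in the peak from 4400504 to 4401165, which had 50, 49 and 59 fragments in the order of the stages. The third by fold, from 4322969 to 4324272, had 48, 47 and 46 fragments. At these 2 sites the unscaled fragments of the 3 stages lay within the counting interval of proliferation (37.1 to 65.9 and 35.4 to 63.6). The third highest fold at 36 h, 18.1, was at 4463141 to 4464883, with 57 fragments at 36 h and 77 at 72 h, against 34 in proliferation.

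Strong sites at Sept9 lay in several blocks, each already present in proliferation. Fragments are given here before any scaling for depth unless stated. The highest fold in proliferation, 15.1, was in the peak from 117119603 to 117122076 with 88 summit fragments (70.6 to 108.4). Peaks overlapping it had 101 at 36 h and 99 at 72 h, or 84.6 and 90.3 at the depth of proliferation. The same site held the highest fold at 36 h, 27.3, in a peak from 117118289 to 117122086. At 72 h it lay in the widest peak of the window, 6740 bp from 117116648 to 117123387, which joined 3 proliferation peaks covering 4.92 kb. Its local background relative to the genome background was 2.97 in proliferation, 1.29 at 36 h and 1.63 in the 72 h list, and the part of this in the fold was not tested. At 36 h the widest peak, 6394 bp from 117168997 to 117175390, covered 6 proliferation peaks with 4.88 kb. It had 54 fragments at its summit, or 45.3 at the depth of proliferation, against 45 at the highest of these proliferation peaks. The peak from 117154962 to 117159683 had more, with 107 fragments at 36 h (87.7 to 129.3) and 89 at 72 h against 43 in proliferation. At the depth of proliferation the later values were 89.7 and 81.2. The widest proliferation peak, 3355 bp from 117212916 to 117216270, had 57 in proliferation, 31 at 36 h and 59 at 72 h, the later values being 26.0 and 53.8 when scaled. The highest fold at 72 h, 24.2, was in the peak from 117101187 to 117103428, with 83 fragments at 72 h and 67 at 36 h against 68 in proliferation. Scaled for depth, these were 75.7 at 72 h and 56.1 at 36 h.

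Regions were formed by merging overlapping peaks of the 3 lists. At Frmd4a, 37 of 109 regions (33.9%) were gained, meaning that both later lists had a peak there and proliferation had none, and at Sept9 23 of 86 (26.7%), compared with 22.3% over all 112926 regions of the series. Since the windows were chosen for growth from proliferation, nothing is read from these shares. The counts depend on how regions are drawn, since merging peaks within 1 kb gave 8 gained regions at Frmd4a and 3 at Sept9. The gained regions of Frmd4a were 172 to 2947 bp wide, with a median of 809 bp, and 15 of them lay more than 5 kb from any proliferation peak. Those of Sept9 were 252 to 1501 bp wide, with a median of 630 bp, and 1 lay more than 5 kb away. Proliferation peaks covered 9.0% of the Frmd4a window and 28.0% of the Sept9 window, which bears on this distance. No series share was computed for it, so nothing is read from these counts. Regions of 36 h alone numbered 31 at Frmd4a (28.4%) and 15 at Sept9 (17.4%), compared with 15.9% in the series. Regions of 72 h alone numbered 21 (19.3%) and 8 (9.3%), compared with 23.9%. There was 1 lost region at Frmd4a (0.917%) and there were 2 at Sept9 (2.33%), against a series share of 6.7%. The lost regions were narrow, 151 to 249 bp, with 15 or 16 summit fragments. The choice of the windows bears on the shares of 36 h alone and of lost regions too, so nothing is read from them. With lists equal in number, Sept9 had 6 lost and 7 gained regions, and Frmd4a 1 lost and 23 gained. Regions of proliferation and 36 h numbered 0 and 3 (series 1.7%), and those of proliferation and 72 h 0 and 1 (series 3.95%).

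The widest gained region of Frmd4a ran from 4452956 to 4455902, 2947 bp, with 27 summit fragments at 36 h (17.8 to 39.3) and 40 at 72 h (28.6 to 54.5), 6.72 kb from the closest proliferation peak. The next, from 4349677 to 4352023, had 67 and 68 fragments at 36 h and 72 h, and the third, from 4493452 to 4495336, had 26 and 21. At Sept9 the widest gained regions ran from 117134459 to 117135959 with 26 and 18 fragments at 36 h and 72 h, from 117151247 to 117152595 with 22 and 28, and from 117148446 to 117149614 with 25 and 12. The intervals of the last pair, 16.2 to 36.9 and 6.2 to 21.0, overlapped.

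A few of the later Frmd4a peaks with no proliferation peak nearby had many fragments. A later peak was termed detectable if, at the depth and shared-region signal of the proliferation library, it had at least a 99% chance of reaching the 18 fragments needed for a call there, and missing if no proliferation peak lay within 1 kb. At Frmd4a, 22 peaks of 36 h were detectable and 5 of them were missing in proliferation, compared with 17.3% of detectable 36 h peaks in the series. At 72 h, 23 were detectable and 6 missing, compared with 20.1% in the series, so both shares (22.7% and 26.1%) were near those of the series. They included the 36 h peak from 4438294 to 4439505, with 62 fragments, 50.2 expected in proliferation and the nearest proliferation peak 23.12 kb away, and the 72 h peak from 4349677 to 4352023, with 68 fragments and 52.9 expected. With a chance of a miss of at most 0.01%, chosen after seeing the data, 4 such peaks were counted at 36 h and 2 at 72 h. At Sept9, 19 peaks of 36 h and 16 of 72 h were detectable and 0 were missing. Whatever their strength, 63 of 102 peaks of 36 h at Frmd4a and 30 of 97 at Sept9 had no proliferation peak within 1 kb, compared with 44% of the 36 h list. The counts for 72 h were 57 of 95 and 22 of 80, compared with 47.1%.

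Regions with a peak at all 3 stages were mostly longer in the later lists. They numbered 19 at Frmd4a (17.4% of its regions) and 34 at Sept9 (39.5%), compared with 25.6% in the series. Length under peaks at 36 h was at least 1.5 times that of proliferation in 10 of the 19 at Frmd4a and 13 of the 34 at Sept9, compared with 35% over the series, with median ratios of 1.66, 1.36 and 1.24. At 72 h these were 11 and 15 regions, compared with 37.4%. Since the windows were chosen for growth in length from proliferation, nothing is read from these shares. The height of the signal differed between the loci, and it is given as a description because it is not independent of peak length. Summit fragments scaled for depth were at least 1.5 times those of proliferation in 8 of 19 Frmd4a regions and 4 of 34 Sept9 regions at 36 h, compared with 15.1% over the series, and in 11 and 7 at 72 h, compared with 24.6%. The median ratio was 1.4 at 36 h and 1.52 at 72 h for Frmd4a, 1.04 and 1.12 for Sept9, and 1.0 and 1.14 for all 28908 such regions of the series. Between the later stages the length was less at 72 h in 5 of 19 Frmd4a regions and 17 of 34 Sept9 regions, compared with 44.2% over the series. Summed over these regions, Frmd4a had 44.0 kb (72 h) and 43.0 kb (36 h), and Sept9 70.1 kb and 70.5 kb, so most of the shorter total at 72 h lay in other regions.

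**Figure D4:**
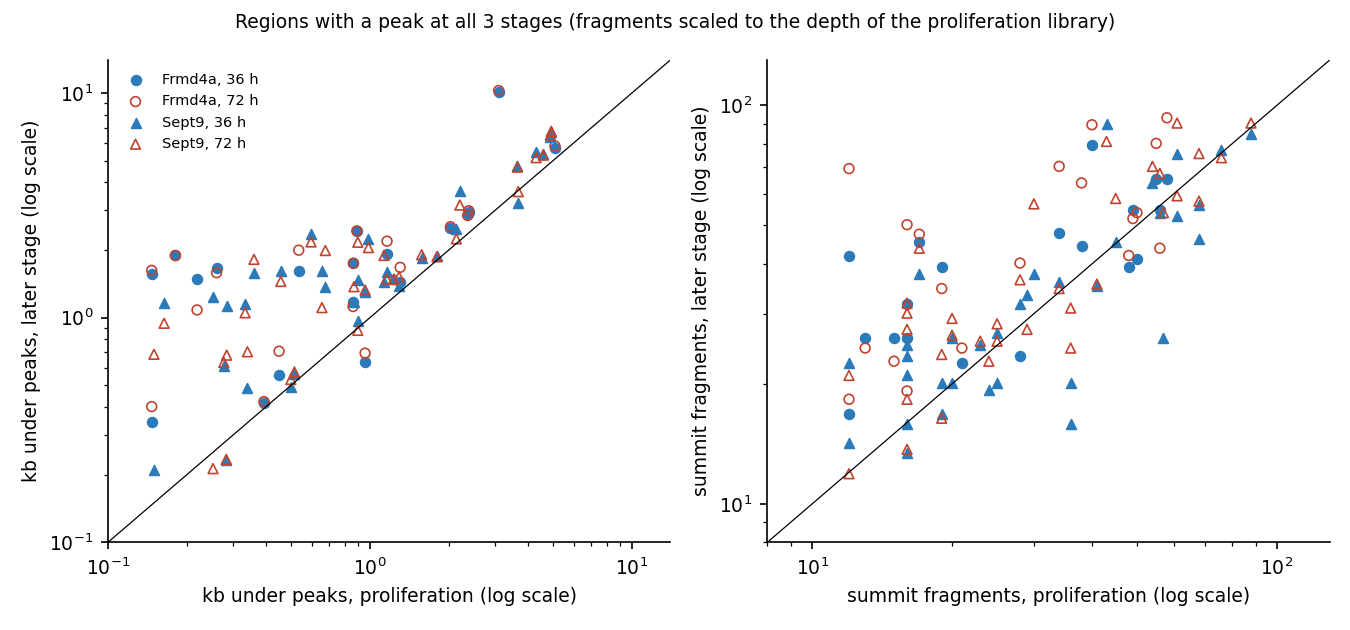
Each region with a peak at all 3 stages, with its value in proliferation on the x axis and its value at 36 h (filled) or 72 h (open) on the y axis, both log scaled, for length under peaks in kb and for summit fragments scaled to the depth of the proliferation library. The line marks equal values. In length 18 of 19 Frmd4a and 31 of 34 Sept9 regions lie above it at 36 h, and in fragments 15 of 19 and 20 of 34 do. Over all 28908 such regions of the series, 70.2% were longer at 36 h than in proliferation and 14472 had more scaled fragments.

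Median widths and folds at the loci were near those of the lists, while peaks wider than 2 kb made up a larger share. Mean width at Frmd4a was 602, 770 and 805 bp in the order of the stages, and at Sept9 776, 919 and 1031 bp. The median width was 394, 365.5 and 423 bp for Frmd4a and 408, 457 and 472 bp for Sept9, compared with 363, 376 and 393 bp for the lists. Peaks wider than 2 kb numbered 3, 9 and 7 at Frmd4a and 7, 10 and 10 at Sept9 in the order of the stages, while 2.61%, 4.53% and 5.25% of the whole lists were as wide. Median folds were 5.99, 5.68 and 5.52 for Frmd4a and 5.23, 6.33 and 6.03 for Sept9, compared with 5.52, 5.71 and 5.7. The local background at the peaks of Frmd4a had a median of 1.46, 1.05 and 1.29 times the genome background, and at Sept9 1.98, 1.0 and 1.22 times.

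As stitched clusters, the loci differed in how continuous they were. At 36 h all 102 Frmd4a peaks formed 1 cluster of 231.0 kb with gaps of up to 12500 bp, the fourth longest by length under peaks. In proliferation the window held 4 clusters, the longest of which had 9.4 kb under peaks, and at 72 h 4 clusters, the longest of which had 42.2 kb, and the longest gap, 14.4 kb, ran from 4498481 to 4512914. With gaps of up to 5 kb the longest Frmd4a cluster had 5.8, 20.5 and 20.2 kb. Sept9 held together better, with 27.6 kb in the longer of 2 clusters in proliferation and all of its later length, 89.1 and 82.5 kb, in 1 cluster. At the shorter gap the longest Sept9 cluster had 21.3, 88.1 and 69.1 kb, and ranked 1 in the list at each later stage.

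By their lengths over the 3 stages, the clusters most like Frmd4a lay on chromosome 2 from 173044086 to 173214187, with 28.4 kb (proliferation), 63.6 kb (36 h) and 60.7 kb (72 h), on chromosome 14 from 26266948 to 26385318, with 28.0, 66.0 and 57.5 kb, and on chromosome 4 from 132566931 to 132754142, with 34.4, 80.1 and 74.8 kb. Likeness was the Euclidean distance of log2(bp + 100), at 0.53, 0.54 and 0.55. Nearest to Sept9 was the cluster on chromosome 15 from 77613354 to 77811777, at a distance of 0.29, with 59.9, 94.7 and 90.5 kb. The next was on chromosome 15 from 85428884 to 85551732, at 0.55, with 46.1, 71.0 and 61.7 kb. The third was the chromosome 4 cluster also near Frmd4a, at 0.59. With 3 libraries such likeness describes lengths and nothing more.

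Peaks also lay outside the window before Frmd4a, above all in the later lists. At Frmd4a the first peak inside began at 4321938 in proliferation (fold 12.9), 4321089 at 36 h (fold 6.0) and 4309637 at 72 h (fold 3.8), and the nearest peak outside on that side was 36.9 kb, 5.4 kb and 10.2 kb from the window. The last peak inside ended at 4514513 (fold 4.2), 4552091 (fold 5.7) and 4552147 (fold 10.7), and the next peak began at 4572685, 4572606 and 4572537 (folds 5.9, 13.8 and 5.8). In the 50 kb before the Frmd4a window, 1.1, 8.8 and 6.7 kb lay under peaks, or 2.2%, 17.6% and 13.5%, and in the 50 kb after it 0.4, 0.6 and 0.7 kb. The Sept9 cluster was isolated in proliferation, with 0 kb under peaks in the 50 kb on either side, 2.8 kb before and 1.9 kb after in the 36 h list, and 1.8 and 0.3 kb in that of 72 h. The nearest peak before its window was 70.8, 13.4 and 19.4 kb away in the order of the stages, and the nearest after it 77.5, 41.0 and 21.5 kb. Its first peak inside began at 117077533 (fold 5), 117077575 (fold 10) and 117066746 (fold 4.3). Its last peak inside ended at 117221413 in proliferation (fold 3.7), 117219586 at 36 h (fold 6.3) and 117219602 at 72 h (fold 6.1).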

How the data were processed

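The 3 lists hold H3K27ac peaks called separately for each stage of C2C12 differentiation. Per the submitters' processing notes BWA, MACS2, deepTools and build mm9 were used, without versions. The deposited columns are peak position, fold at the summit (a ratio to background), −log10 p, −log10 q and summit offset. The deposited score was not used. The fold and −log10 values are the authors' and serve only to rank or describe peaks within a list.

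Summit fragments and local background were solved from the deposited fold and −log10 p with the MACS2 formulas and 1 scale factor per library (0.673, 0.698 and 0.657), which gave back the deposited p for 100% of peaks (relative tolerance 0.0003). In lists simulated from each stage, at least 99.97% of peaks got their true fragment number. Relative depth came from the lowest background shared by at least 1% of peaks. Total reads per library are unknown here, and Poisson intervals cover counting error only. Overlap meant at least 1 bp, and detectability used the 95% quantile of proliferation background.

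The members, the lists and the tests were chosen with earlier results of these data known. Peaks named are, per locus and stage, among the 3 widest and the 3 with the highest fold, the 3 widest gained regions, and the peaks at the window edges. The other site, bin and gaps given by position were chosen after their values were seen. Alternatives were stricter q and fold, lists equal in number, thinning, other window edges, other gaps and other overlaps. Python 3.11.15, numpy 2.4.6, pandas 2.3.3 and scipy 1.17.1 were used.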

Additional observations from a re-analysis of the deposited data

Results flagged for a closer look

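The local background solved from the lists is not itself one of the peak measures compared, but peaks are called against it. At the proliferation peaks of both loci it lay above the genome background, with a median of 1.46 times at Frmd4a and 1.98 times at Sept9, which is why it is listed here. It is not particular to these loci: over the whole proliferation list the median was 1.94 times, and 91.4% of peaks lay above the genome background. With depth, signal and background made equal, Frmd4a had 73.1 kb under peaks at 36 h, against 23.5 kb in proliferation. This alternative drops whole peaks and keeps the deposited width of the others, so it cannot show the part of the background in peak width. That part was not tested.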

How the results depend on the processing

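Of 128 recomputed values, 112 stayed within 1.5 times the reported value without a reversal, 14 moved further and 2 reversed. Direction was checked only for the ratios of peak number and of length between stages. For all other values size alone was checked. Those within this range include the Sept9 peak number at 36 h over proliferation, 1.06 with lists equal in number in place of 1.49, and the share of added Frmd4a length beside a proliferation peak, 51.5% at 2 kb in place of 34.5% at 1 kb. No paired analysis was possible because each stage had 1 library. The peak number of Sept9 at 72 h over proliferation reversed, at 0.74 with lists equal in number and 0.89 with depth, signal and background made equal, whereas its length under peaks did not. With lists equal in number, the ratio of peak number to proliferation at Frmd4a was 1.56 for 36 h and 1.36 for 72 h, gained regions numbered 23 at Frmd4a and 7 at Sept9, and lost regions 6 at Sept9. Merging peaks within 1 kb gave 8 gained regions at Frmd4a and 3 at Sept9 and 0 lost at Frmd4a. With a −log10 q of at least 5, gained regions numbered 15 at Sept9 and lost ones 0 at Frmd4a. With gaps of up to 5 kb, the longest Frmd4a cluster had 5.8 kb under peaks in proliferation, 20.5 at 36 h and 20.2 at 72 h. With a chance of a miss of at most 0.01%, 2 detectable 72 h peaks of Frmd4a were missing in proliferation. The causes were not tested. Spread between cultures was not measured.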
